A study of Homo sapiens with 6 samples.

Results

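The 47 genes described here were listed by name as genes of the lysosome and of autophagy. The rule uses no measured value, but the list was drawn up with earlier results of these data known. All 47 were found among the 24462 gene symbols of the count files. They cover 5 lysosomal membrane proteins, 11 cathepsins together with tripeptidyl peptidase 1, 11 glycosidases, sulfatases and acid lipase, 2 lipid-binding proteins of the lysosomal lumen, the 3 transcription factors TFEB, TFE3 and MITF, 4 genes of the proton pump, 4 genes of the ATG8 family and 6 genes of autophagy initiation and conjugation. They lie on 19 chromosomes. 44 of them had enough counts to be tested. CTSH, CTSS and TFEB did not.

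Bulk RNA was measured by 3′ sequencing in 3 libraries of 1CT and 3 libraries of 1CT-A. 1CT is an immortalized line of human colon epithelial cells, labelled wild type (WT), and 1CT-A is the line derived from it in which wild type APC was depleted, labelled APC KD. APC is the scaffold of the complex that marks β-catenin for destruction, and its loss is an early step of colorectal cancer. The comparison of the lines asks which transcripts differ when APC is depleted.

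Both lines were untreated and grew in the same medium, a mixture of DMEM and M199 with EGF at 20 ng/mL, hydrocortisone at 1 µg/mL, insulin at 10 µg/mL, sodium selenite at 5 nM, transferrin at 2 µg/mL and 2% FBS. Each library was made from 500 ng of total RNA. Both lines came ready made from another laboratory, and the sources used here do not say whether 1CT carries a control vector or whether either line is a single clone, so the depletion of APC and the separate history of the lines cannot be told apart. The labels do not say that the 3 libraries of a line came from separate cultures, so the p-values measure only the spread between these libraries.

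The libraries held 7788679 to 8452258 counts in 1CT and 11158108 to 12602988 in 1CT-A. A count of 3, taken as the limit of detection, corresponded to 0.355 to 0.385 CPM (counts scaled to a library total of 1000000) in 1CT against 0.238 to 0.269 CPM in 1CT-A. These limits cover counting error only. The library 1CT replicate 3 stood somewhat apart from its group: its chi-square per degree of freedom against the other 1CT libraries was 7.54 and 9.0, and 3.11 to 4.56 for every other pair of the same line. Without it, 5 members were higher and 21 lower in 1CT-A, compared with 6 and 21 with it. APC itself was measured at 46.6 ± 2.75 CPM in 1CT and 31.9 ± 2.21 CPM in 1CT-A (mean ± SD, n = 3 libraries each), a log2 fold change of -0.58 (SE 0.092, adjusted p = 1.76e-04). The epithelial markers EPCAM, VIL1 and MUC2 had no count in any of the 6 libraries. The 9 epithelial markers examined summed to 13.4 to 17.4 CPM in 1CT against 3.23 to 7.20 CPM in 1CT-A, most of it KRT18. The 9 mesenchymal markers, among them VIM, summed to 4711 to 5727 and 4318 to 4634 CPM. These 9 did not move together. At an adjusted p under 0.05, COL3A1 and DCN rose by 2.37 and 0.30 on the log2 scale. VIM, COL1A1, THY1, PDGFRB and ACTA2 fell, and COL1A2 and LUM did neither. The 10 markers of macrophages and leukocytes, cells rich in lysosomes, summed to 1.30 to 2.18 CPM in 1CT against 0.439 to 1.19 CPM in 1CT-A, and PTPRC was at 0 in every library. The nuclear RNA MALAT1 was measured at 12964 ± 157 CPM in 1CT and 2193 ± 109 CPM in 1CT-A, and the nuclear RNA NEAT1 at 915 ± 25.8 and 302 ± 38.0 CPM. Their part in the values of the lysosomal genes was not tested.

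Lysosomes are acidic organelles in which hydrolases break down proteins, glycans, glycolipids and lipids that arrive by endocytosis or by autophagy. A proton pump, the V-ATPase, acidifies the lumen, and membrane proteins such as LAMP1 and LAMP2 form the limiting membrane. In autophagy, a kinase complex and a lipid kinase complex start a double membrane, proteins of the ATG8 family are coupled to its lipids, cargo receptors bind them, and the closed autophagosome fuses with a lysosome. TFEB, TFE3 and MITF are related transcription factors that enter the nucleus when mTORC1 at the lysosomal surface is inactive, and they bind a sequence called the CLEAR element in promoters of many lysosomal genes.

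More of the tested lysosome and autophagy genes were lower in 1CT-A than higher, and most of the changes were small. At an adjusted p under 0.05, 6 of the 44 tested genes were higher in 1CT-A and 21 were lower, against 25.0% higher and 26.0% lower among all 12514 genes tested. In total 61.4% of the tested members were called, against 51.0% of all genes tested. The genes that rose were CTSK, CTSC, ATG5, GUSB, GAA and LIPA. The median log2 fold change was -0.22 over the tested members and -0.01 over all genes tested. Every 1CT-A library lay above every 1CT library for 7 of the members tested, where 31.8% of all genes did so, and below for 23, where 27.9% of all genes did so.

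Changes of at least 2-fold were rare. With an adjusted p under 0.05, CTSK was higher by at least 2-fold, and GABARAPL1 and CTSO were lower by at least 2-fold, where 4.00% of all genes tested passed both criteria upward and 9.92% downward. With a 2-fold change and p under 0.01 without adjustment in the edgeR fit, 1 member was again higher and 2 were lower, beside 3.80% and 9.60% of all genes. Per-gene two-tailed tests on log2(CPM + 1) at the same thresholds gave 1 member higher and 1 lower. Adding 1 makes the fold change of genes at few CPM smaller, and CTSO averaged 3.97 CPM in 1CT and 2.01 CPM in 1CT-A. In the edgeR fit the number lower was 4 without 1CT replicate 2 and 1 without 1CT replicate 3 or without 1CT-A replicate 3. Of the 27 called members, 12 changed by less than 0.5 on the log2 scale, 12 by 0.5 to 1 and 3 by 1 or more. The median absolute log2 fold change was 0.33 for the tested members and 0.36 for all genes tested. It was 0.31 over the 9816 genes averaging 5 CPM or more, of which 53.3% were called. Of the 17 members not called, 15 had a 95% interval of the log2 fold change that lay within 0.5 of 0, and MCOLN1 and MAN2B1 had wider ones.

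**Figure D1:**
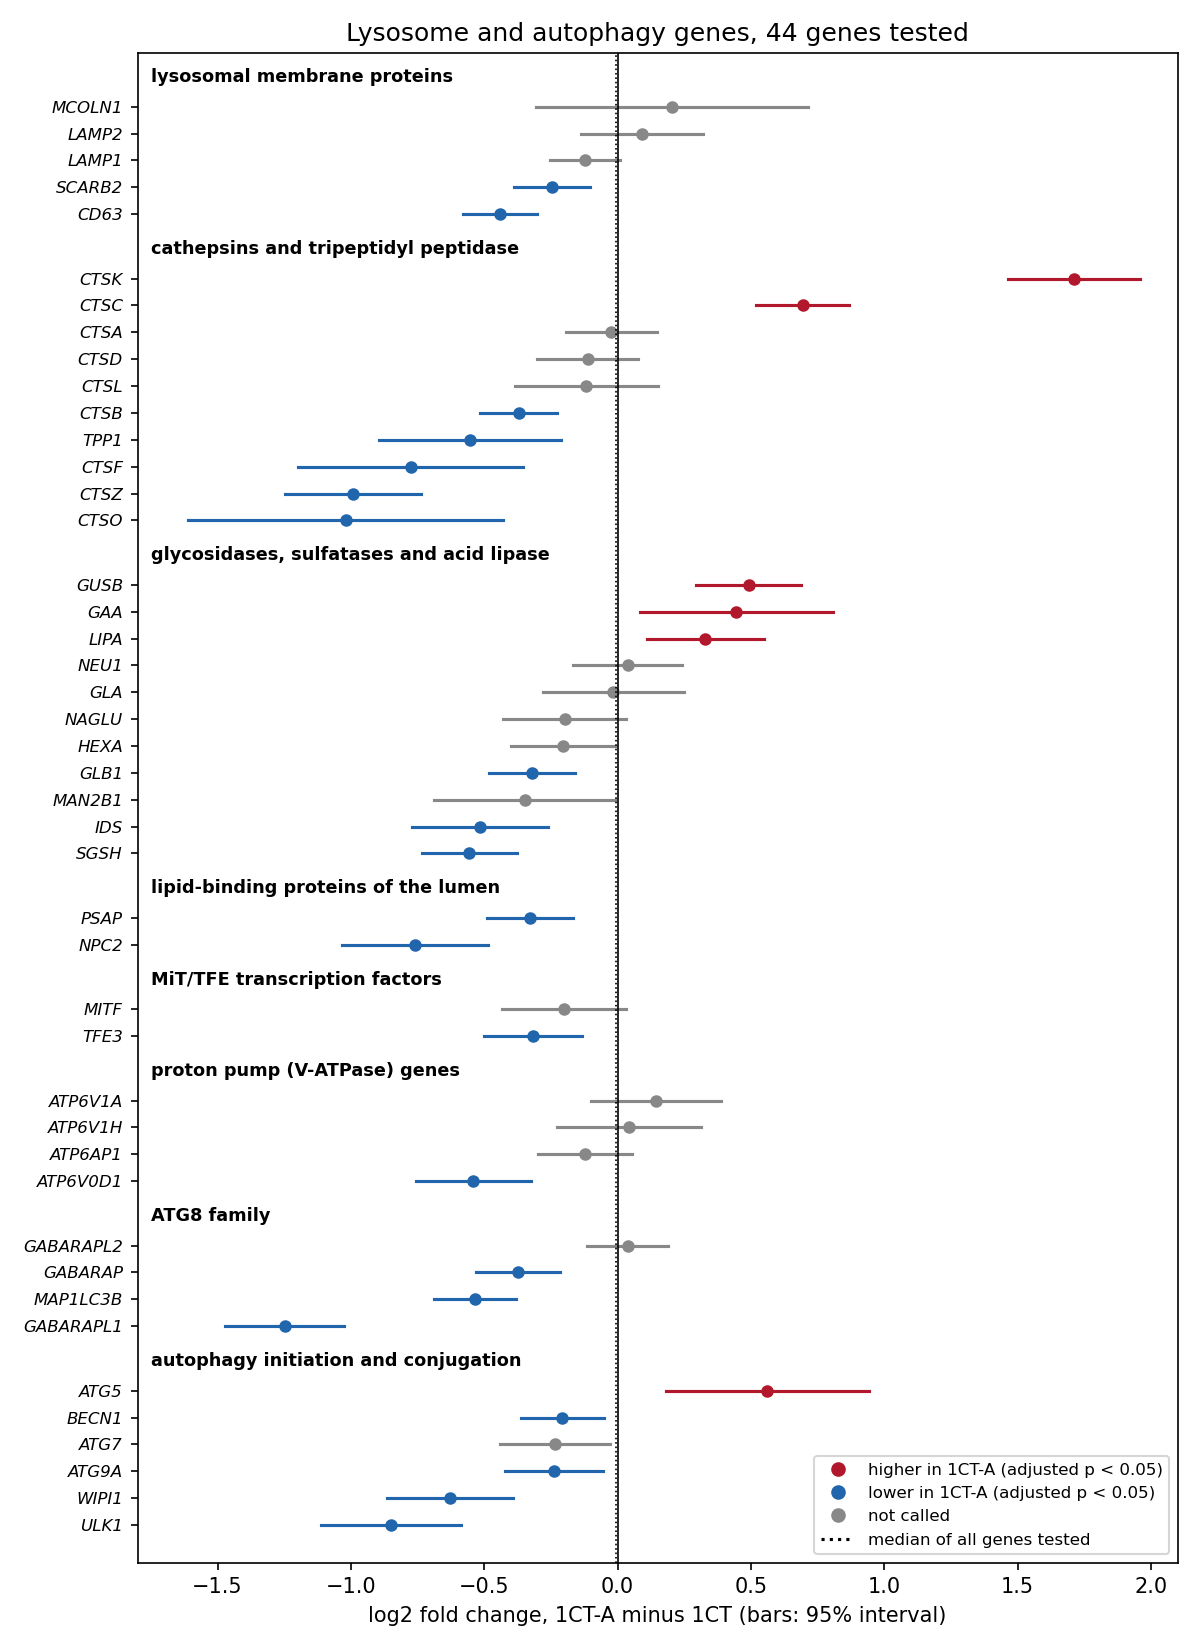
Log2 fold change of each of the 44 tested lysosome and autophagy genes in 1CT-A against 1CT (x axis), grouped by role, with bars for the 95% interval of the edgeR fit. Points to the left of 0 are lower in 1CT-A; 21 genes were called lower (blue), 6 higher (red) and 17 were not called (grey), with CTSK at 1.71 and GABARAPL1 at -1.25 as the ends of the range.

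Together the 47 genes took 0.729% to 0.754% of the counts in the 1CT libraries and 0.609% to 0.650% in the 1CT-A libraries. CD63 alone held 34.6% to 40.8% of these counts. Without CD63, the sum of the members was 4455 to 4581 CPM in 1CT against 3935 to 4144 CPM in 1CT-A, so the sums did not overlap with or without it. In bulk RNA, fewer cells that use a gene and less of its RNA per cell cannot be told apart. The libraries read the 3′ ends of transcripts, so a level is not read as more or less transcript of one gene than of another. Ratios and shares between genes are used below only to compare libraries.

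The transcription factors that drive lysosomal genes were measured at low to moderate levels. TFEB (chr6:41683978-41736259, GENCODE 44 on GRCh38, as for all gene positions below) was counted 8, 9 and 12 times in the 1CT libraries and 8, 7 and 7 times in the 1CT-A libraries, which is 0.947, 1.09 and 1.54 CPM against 0.717, 0.614 and 0.555 CPM. The 1CT-A libraries all lay below the 1CT libraries, but at so few counts TFEB did not pass the filter, and a two-sided exact permutation test gave p = 0.1, the smallest value that 3 libraries against 3 allow. In the fit without a filter its log2 fold change was -0.90 (SE 0.524, adjusted p = 0.178), so a difference in TFEB was not called.

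TFE3 (chrX:49028726-49043410), which shares DNA-binding sequence and many targets with TFEB, was at 92.3, 95.9 and 91.8 CPM in 1CT and 82.1, 69.0 and 79.4 CPM in 1CT-A. All 1CT-A libraries lay below the 1CT libraries, and TFE3 fell by 0.32 on the log2 scale (SE 0.085, adjusted p = 0.00704). MITF (chr3:69739456-69968336), known from pigment cells and also present in many others, was at 24.0, 26.0 and 22.3 CPM in 1CT and 19.7, 21.7 and 23.2 CPM in 1CT-A. Its groups overlapped, and its log2 fold change of -0.20 (SE 0.108) was not called (adjusted p = 0.137, 95% interval -0.43 to 0.03).

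Promoters were searched for the sequences these factors bind, from the RefSeq promoter table on GRCh38.p14, which gives 250 bases before and 50 bases after each transcription start. It held 51 promoters of 36 of the 47 members. CTSK, CTSO, LAMP2, CTSB, CTSS, HEXA, NAGLU, SGSH, PSAP, ATP6V1A and ATP6V1H were not among them. The CLEAR core TCACGTGA, which reads the same on both strands, was found in 5 of these 51 promoters, those of ATP6V0D1, CTSA, GAA, LAMP1 and MCOLN1, and in 0.98% of all 35116 promoters in the table. The full palindrome, the core with a G before it and a C after it, was found in 2 of the 51, of GAA and MCOLN1, and in 0.353% of all promoters. The shorter E-box CACGTG, which lies within the core, was found in 9 of the 51 and in 7.26% of all promoters, and the M-box TCATGTG, searched on both strands, in 4 of the 51, of CD63, CTSA, SCARB2 and TPP1, and in 2.92% of all promoters.

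The 5 promoters with a CLEAR core are shown because they carry the sequence through which TFEB and TFE3 are known to act. Each line gives the gene and then the strand of transcription from 100 bases before the start to base 10 of the transcript, 5′ to 3′, with the core in capitals. The windows lie at chr16:67481148-67481257 (minus strand) for ATP6V0D1, chr20:45891235-45891344 (plus) for CTSA, chr17:80101481-80101590 (plus) for GAA, chr13:113297139-113297248 (plus) for LAMP1 and chr19:7522524-7522633 (plus) for MCOLN1.
ATP6V0D1: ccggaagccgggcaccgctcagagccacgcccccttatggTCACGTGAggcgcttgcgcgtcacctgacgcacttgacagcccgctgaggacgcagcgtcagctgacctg
CTSA: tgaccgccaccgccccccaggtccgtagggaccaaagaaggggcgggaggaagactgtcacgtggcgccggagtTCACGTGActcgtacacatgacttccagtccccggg
GAA: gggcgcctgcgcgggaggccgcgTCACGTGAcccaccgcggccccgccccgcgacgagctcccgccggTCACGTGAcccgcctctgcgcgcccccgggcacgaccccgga
LAMP1: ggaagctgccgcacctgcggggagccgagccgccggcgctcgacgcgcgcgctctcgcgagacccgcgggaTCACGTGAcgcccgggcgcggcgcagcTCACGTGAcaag
MCOLN1: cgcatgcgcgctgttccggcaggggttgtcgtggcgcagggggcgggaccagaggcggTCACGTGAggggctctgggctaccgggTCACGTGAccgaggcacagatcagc

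GAA, LAMP1 and MCOLN1 hold the core 2 times within this window, and ATP6V0D1 and CTSA hold it 1 time. The 5 genes did not move in a common direction. GAA was called higher at a log2 fold change of 0.45, ATP6V0D1 was called lower at -0.54, and LAMP1 (-0.12), CTSA (-0.02) and MCOLN1 (0.20) were not called. Their median log2 fold change was -0.02. Of the 29 tested members with a promoter in the table and no core in it, 4 were higher, 16 were lower and 9 were not called, with a median of -0.25. Some of these hold an E-box or an M-box. Of the 9 genes with an E-box, the 5 with a core among them, 1 was higher and 3 were lower, with a median of -0.11. Of the 4 with an M-box, 3 were lower and 1 was not called, with a median of -0.34. Among all genes tested, 25.0% were higher and 26.0% lower. A match in a promoter is a description of its letters, and the binding of a factor was not measured.

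**Figure D2:**
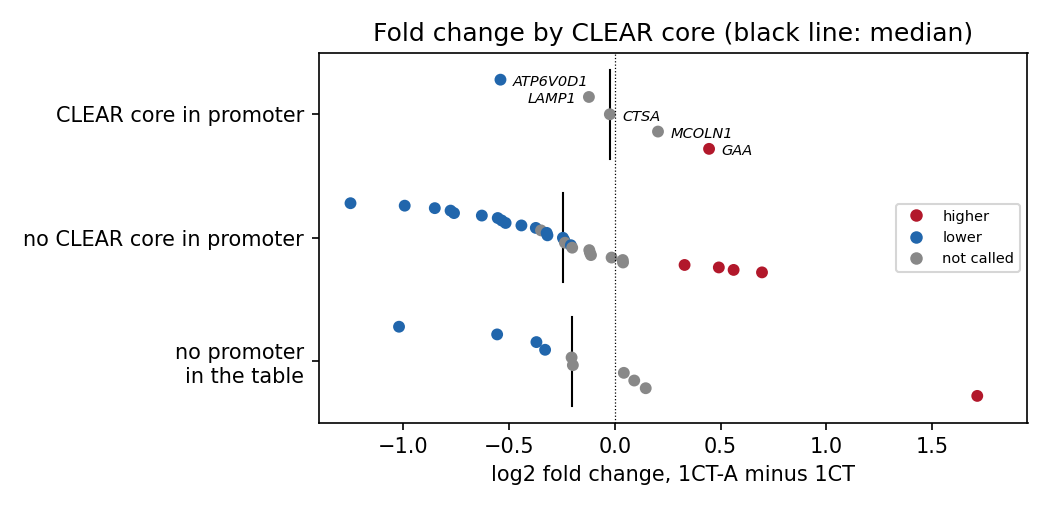
Log2 fold change in 1CT-A against 1CT (x axis) of the tested members, split by whether the RefSeq promoter holds the CLEAR core, with 1 point per gene and a black line at the median of each row. The last row shows tested members without a RefSeq promoter to search, CTSK and CTSO among them. The 5 genes with a core lie on both sides of 0 around a median of -0.02, while the 29 genes without a core have a median of -0.25.

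Among the 5 lysosomal membrane proteins, 2 fell and 3 were not called, a share called of 40.0% against 51.0% of all genes tested. CD63 (chr12:55725323-55729707), a tetraspanin of late endosomes and lysosomes that is also carried on exosomes, was at 2830, 2892 and 3078 CPM in 1CT and 2157, 2356 and 2148 CPM in 1CT-A. The groups did not overlap, and CD63 fell by 0.44 on the log2 scale (SE 0.065, adjusted p = 9.33e-05). SCARB2, the receptor that carries glucocerebrosidase to the lysosome, was at 157 to 160 CPM in 1CT against 136 to 138 CPM in 1CT-A and fell by 0.25. The heavily glycosylated proteins LAMP1 and LAMP2, which line the membrane, were not called, with 95% intervals of the log2 fold change of -0.25 to 0.01 and -0.14 to 0.32. MCOLN1, a calcium channel of the lysosome, was at 2.78 to 3.08 CPM in 1CT against 2.96 to 4.13 CPM in 1CT-A, and its interval of -0.31 to 0.72 was wide. The last exon of MCOLN1 overlaps an exon of PNPLA6 on the same strand, so reads there could be assigned to either gene.

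Among the members tested, the cathepsins held the largest rise and 3 of the 5 largest falls. CTSK and CTSC rose, CTSB, CTSF, CTSO, CTSZ and TPP1 fell, and CTSA, CTSD and CTSL were not called. The share called in this group was 70.0%, against 51.0% of all genes tested. CTSK (chr1:150794880-150809577), a cysteine protease best known for cutting collagen in bone, was at 10.8, 9.30 and 10.3 CPM in 1CT and 32.0, 36.6 and 33.6 CPM in 1CT-A. Each 1CT-A library lay far above each 1CT library, and the log2 fold change was 1.71 (SE 0.115, adjusted p = 9.90e-08), a 3.28-fold rise. CTSC, which removes dipeptides and activates serine proteases of granules, was at 289, 271 and 229 CPM in 1CT and 424, 456 and 434 CPM in 1CT-A, also without overlap, and rose by 0.70 on the log2 scale.

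CTSO (chr4:155921580-155953912), a cysteine protease of little known function, was at 3.79, 3.62 and 4.49 CPM in 1CT and 2.51, 2.11 and 1.43 CPM in 1CT-A. The groups did not overlap, although each value rests on only 18 to 35 counts, and CTSO fell by 1.02 on the log2 scale (SE 0.273, adjusted p = 0.00716). Its fall was under 2-fold with library size only (-0.98), without a filter (-0.97) and with libraries thinned to the smallest total (-0.88). The same held without 1CT replicate 3 (-0.91) and without 1CT-A replicate 3 (-0.81). CTSO stayed called lower in all of these fits. CTSZ, a carboxypeptidase, was at 109, 97.3 and 124 CPM in 1CT and 66.2, 50.2 and 53.9 CPM in 1CT-A and fell by 0.99. CTSF fell by 0.78, TPP1, which removes tripeptides from the start of proteins, by 0.55, and CTSB, an abundant endopeptidase, by 0.37. The 3 members not called were CTSD, the main aspartic protease (95% interval -0.30 to 0.08), CTSL (-0.39 to 0.15) and CTSA, which also protects β-galactosidase and neuraminidase (-0.19 to 0.15). CTSL was called lower without 1CT replicate 3 (-0.27). The last exon of CTSA overlaps PLTP on the opposite strand.

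CTSH and CTSS, proteases known from lung and from antigen-presenting cells, were near the limit of detection. CTSH had 10, 4 and 8 counts in 1CT and 0, 4 and 1 in 1CT-A, and CTSS had 2, 6 and 2 counts against 0, 3 and 0. Neither passed the filter. In CPM, the CTSH libraries did not overlap between the lines, and the CTSS libraries did. Two-sided exact permutation tests gave p = 0.1 for CTSH, the smallest value possible here, and p = 0.3 for CTSS. In the fit without a filter, CTSH had a log2 fold change of -2.55 (SE 0.789, adjusted p = 0.00448) and CTSS one of -2.09 (SE 1.08, adjusted p = 0.12). Both genes have 1CT-A libraries at 0, and their fitted values depend on the prior count.

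Rises and falls nearly balanced in the sum of this group. The 12 proteases together were at 1335 ± 31.7 CPM in 1CT and 1358 ± 34.1 CPM in 1CT-A (mean ± SD, n = 3 libraries), with overlapping libraries. The composition differed: the ratio of CTSC to CTSZ counts was 2.65, 2.79 and 1.85 in the 1CT libraries and 6.40, 9.07 and 8.05 in the 1CT-A libraries. This pair was picked after its values were seen, so the ratio is given with no test.

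Among the 11 enzymes that degrade glycans, sulfated sugars and lipid esters, 3 rose, 3 fell and 5 were not called. The share called, 54.5%, was near the 51.0% of all genes tested. SGSH (chr17:80206716-80220923), the sulfamidase of heparan sulfate breakdown, was at 62.0, 62.1 and 65.4 CPM in 1CT and 45.7, 44.8 and 41.9 CPM in 1CT-A. The groups did not overlap, and SGSH fell by 0.56 on the log2 scale (SE 0.082, adjusted p = 9.87e-05). The last exon of SGSH overlaps CARD14 on the opposite strand, and no source used here gives a strand setting for the counting. GUSB, the β-glucuronidase, was at 30.1, 31.9 and 33.6 CPM in 1CT and 45.8, 43.6 and 48.5 CPM in 1CT-A and rose by 0.49. Its pseudogene copy GUSBP1, with which reads could be shared, was at 3.12 ± 0.653 and 2.17 ± 0.328 CPM and was not called.

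Enzymes of the same degradation route did not move together. Heparan sulfate is taken apart by IDS, SGSH, NAGLU and GUSB among others. IDS fell by 0.52 and SGSH by 0.56, GUSB rose by 0.49, and NAGLU was not called (log2 fold change -0.20, 95% interval -0.43 to 0.03). The last exon of IDS overlaps another annotated transcript on the same strand. GAA, which releases glucose from glycogen, was at 6.40 to 9.11 CPM in 1CT against 10.1 to 11.8 CPM in 1CT-A and rose by 0.45 with an adjusted p of 0.04, a call that was lost on leaving out any 1 library other than 1CT replicate 1, with log2 fold changes of 0.33 to 0.49 in those fits. LIPA, the acid lipase that frees cholesterol from its esters, rose by 0.33, a call lost without 1CT-A replicate 3 (0.31). Of the enzymes of ganglioside breakdown, GLB1 fell by 0.32, and HEXA (-0.20, 95% interval -0.40 to -0.01, adjusted p = 0.0731) and NEU1 (0.04, -0.17 to 0.24) were not called. GLA, which acts on globosides, was not called (-0.02, -0.28 to 0.25), nor was MAN2B1, a mannosidase (-0.35, -0.69 to -0.01, adjusted p = 0.0799), whose last exon overlaps another transcript on the same strand. MAN2B1 was called lower without 1CT replicate 1 (-0.53).

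Both lipid-binding proteins of the lumen fell, where 26.0% of all genes tested did. NPC2 (chr14:74476192-74494177), which hands cholesterol to NPC1 in the lysosomal membrane, was at 149, 213 and 160 CPM in 1CT and 89.8, 108 and 119 CPM in 1CT-A. The groups did not overlap, and NPC2 fell by 0.76 on the log2 scale (SE 0.127, adjusted p = 2.59e-04). The microRNA gene MIR4709 lies within its last exon. PSAP, the precursor of the saposins that present glycolipids to hydrolases, was at 636 to 735 CPM in 1CT against 526 to 584 CPM in 1CT-A and fell by 0.33.

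Of the 4 genes of the proton pump, 1 fell, where 26.0% of all genes tested did. ATP6V0D1 (chr16:67438014-67481181), which joins the membrane sector to the stalk, was at 46.3, 43.8 and 54.4 CPM in 1CT and 33.3, 34.6 and 34.1 CPM in 1CT-A. The groups did not overlap, and ATP6V0D1 fell by 0.54 on the log2 scale (SE 0.099, adjusted p = 5.54e-04). ATP6V1A, the catalytic subunit, ATP6V1H, a regulatory subunit, and the accessory protein ATP6AP1 were not called, with 95% intervals of -0.10 to 0.39, -0.23 to 0.31 and -0.30 to 0.06. ATP6V1A was called higher without 1CT replicate 2 (0.28).

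Of the 4 ATG8 family genes among the members, 3 fell, where 26.0% of all genes tested did, and 1 was not called. GABARAPL1 (chr12:10212458-10223128) was at 112, 144 and 139 CPM in 1CT and 51.8, 60.9 and 57.7 CPM in 1CT-A. The lowest 1CT library lay well above the highest 1CT-A library, and GABARAPL1 fell by 1.25 on the log2 scale (SE 0.103, adjusted p = 6.23e-07), to 0.421 of its 1CT level. MAP1LC3B, whose protein LC3B is the usual marker of autophagosomes, was at 148 to 162 CPM in 1CT against 103 to 113 CPM in 1CT-A and fell by 0.53. GABARAP fell by 0.37.

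GABARAPL2 was at 188, 186 and 168 CPM in 1CT and 184, 199 and 189 CPM in 1CT-A. These groups overlapped, and its log2 fold change of 0.04 had a 95% interval of -0.11 to 0.19. Within each library, GABARAPL2 counts were 1.69, 1.29 and 1.21 times those of GABARAPL1 in 1CT and 3.56, 3.27 and 3.28 times in 1CT-A, a pair chosen after its values were seen and given with no test. The close copy MAP1LC3B2, which could share reads with MAP1LC3B, was at 29.2 ± 5.40 and 27.2 ± 2.44 CPM and was not called, and GABARAPL3, a copy of GABARAPL1, had 7, 5 and 6 counts in 1CT and 1, 0 and 3 in 1CT-A.

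Of the 6 genes that start autophagosome formation and conjugate ATG8 proteins, 4 fell, 1 rose and 1 was not called. Among all genes tested, 26.0% fell and 25.0% rose. ULK1 (chr12:131894622-131923150), the kinase that starts autophagy when mTORC1 is inactive, was at 24.8, 30.2 and 29.3 CPM in 1CT and 14.4, 15.6 and 17.9 CPM in 1CT-A. The groups did not overlap, and ULK1 fell by 0.85 on the log2 scale (SE 0.122, adjusted p = 7.53e-05). WIPI1, which reads the lipid signal on the new membrane, was at 33.5 to 41.8 CPM in 1CT against 23.2 to 28.6 CPM in 1CT-A and fell by 0.63. Its last exon overlaps ARSG on the opposite strand.

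BECN1, a scaffold of the lipid kinase complex, fell by 0.21 with an adjusted p of 0.028, and ATG9A, the membrane protein of the vesicles that seed the autophagosome, fell by 0.24 with an adjusted p of 0.0319. The call of BECN1 was lost on leaving out 1CT replicate 1 or any 1 of the 1CT-A libraries, with log2 fold changes of -0.21 to -0.18. That of ATG9A was lost without 1CT replicate 2, 1CT replicate 3, 1CT-A replicate 2 or 1CT-A replicate 3, with -0.24 to -0.18. ATG5, part of the complex that couples ATG8 proteins to lipid, was at 12.9, 14.0 and 8.35 CPM in 1CT and 16.2, 21.1 and 16.4 CPM in 1CT-A and rose by 0.56 (adjusted p = 0.0171), a call lost without 1CT-A replicate 2 (0.44). ATG7, the enzyme that activates ATG8 proteins, was not called at a log2 fold change of -0.24, although its libraries did not overlap (adjusted p = 0.0542). The last exons of BECN1 and ATG7 overlap CNTD1 and VGLL4 on the opposite strand, and that of ATG9A overlaps another transcript on the same strand.

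**Figure D3:**
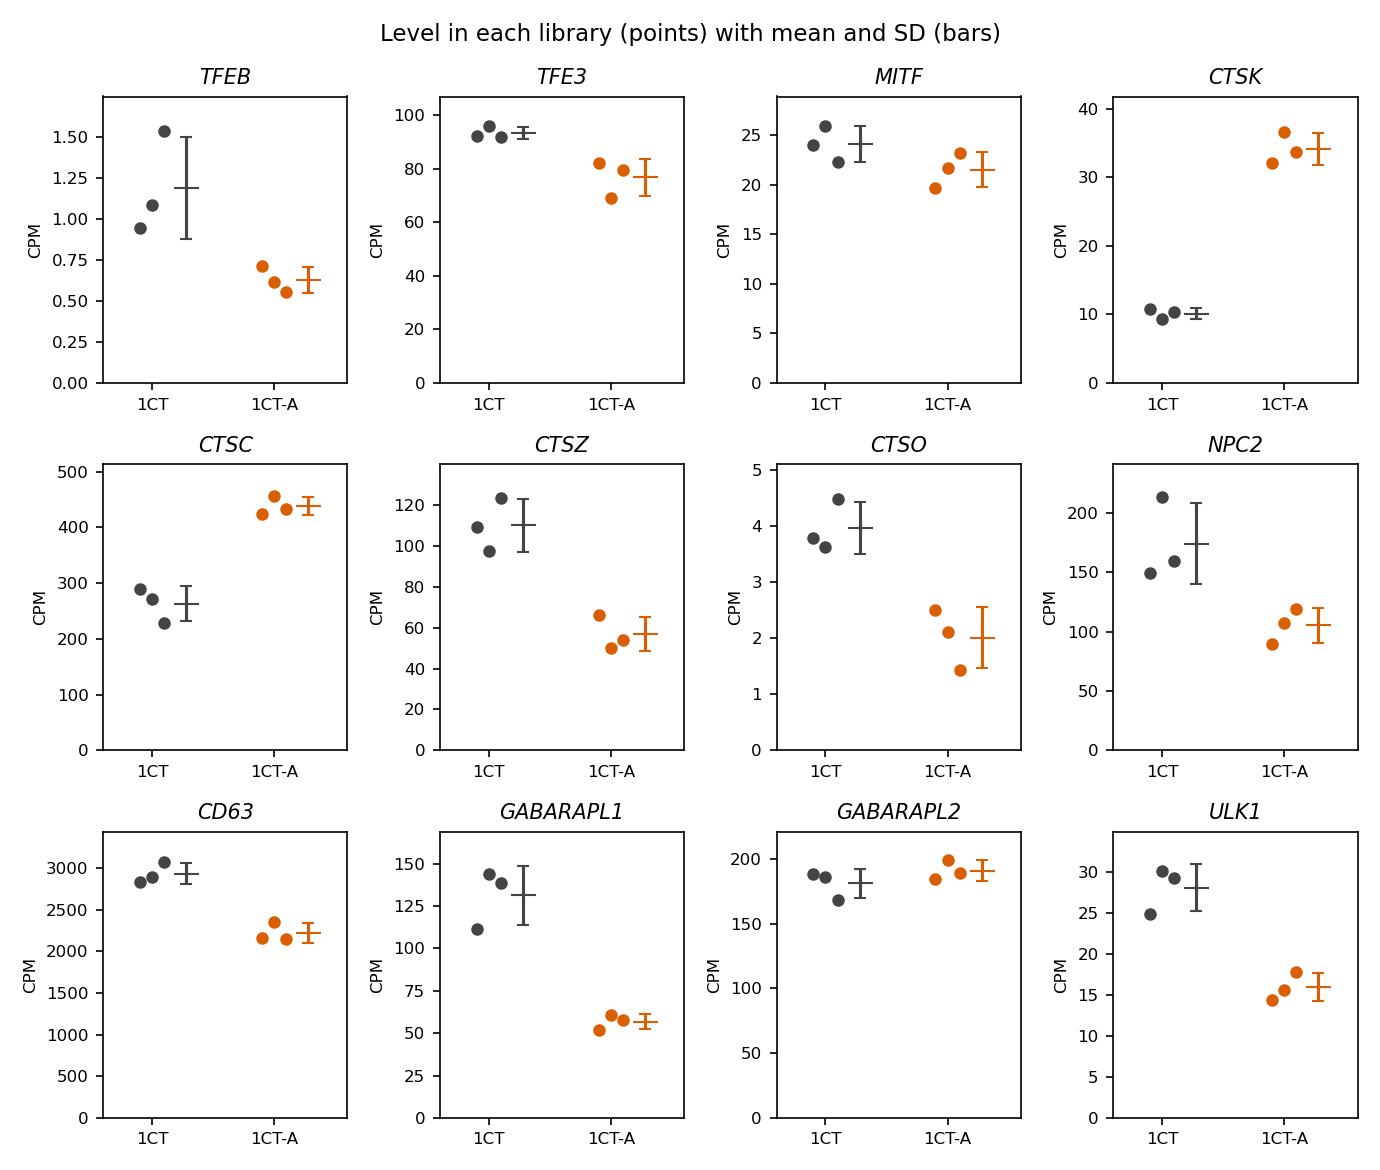
Level of 12 lysosome and autophagy genes in CPM of the library total (y axis, starting at 0 and scaled per gene) in each of 3 1CT and 3 1CT-A libraries (points), with the mean and SD of each line beside them. CTSK and CTSC lie higher in every 1CT-A library, MITF and GABARAPL2 overlap between the lines, and the other 8 genes lie lower in every 1CT-A library, TFEB with only 7 to 12 counts.

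The wider pathway was followed in 8 lists of related genes that are not members. Of 181 listed genes, 177 were in the files and 154 were tested, of which 18 were higher and 57 were lower in 1CT-A, 48.7% in all, with a median log2 fold change of -0.19. Among all genes tested 51.0% were called, 25.0% higher and 26.0% lower, with a median of -0.01, so the related genes were called about as often as other genes, and more of those called were lower. Cargo receptors of autophagy had 10 of 14 tested genes lower and 2 higher, and the other V-ATPase subunits had 10 of 17 lower and 2 higher. Genes that sort hydrolases to the lysosome had 1 of 18 lower and 2 higher.

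Among the cargo receptors, OPTN, which brings ubiquitin-marked mitochondria and bacteria to autophagosomes, was at 219, 226 and 248 CPM in 1CT and 103, 110 and 96.3 CPM in 1CT-A. SQSTM1, the receptor p62, was at 449, 403 and 469 CPM in 1CT and 211, 228 and 202 CPM in 1CT-A. Neither gene overlapped between the lines. OPTN fell by 1.20 (SE 0.080, adjusted p = 9.46e-08) and SQSTM1 by 1.08 (SE 0.078, adjusted p = 2.00e-07) on the log2 scale. The mitophagy receptors BNIP3 and PHB2 rose by 0.43 and 0.17. Of the other V-ATPase subunits, ATP6V0A1 fell by 1.00 and TCIRG1 by 0.78, both isoforms of the large subunit of the membrane sector. ATP6V0E2 and ATP6V1C2 rose by 0.86 and 0.20. Overlap of last exons with neighbouring genes was not examined for the related genes, ATP6V1C2 among them, so reads of a neighbour could be counted there.

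Among the 26 other hydrolases and activators tested, 9 fell and 2 rose, 42.3% called against 51.0% of all genes tested. ARSA, the sulfatase of sulfatide breakdown, fell by 1.05, HGSNAT, the acetyltransferase of heparan sulfate breakdown, fell by 0.95, and PPT1, which removes fatty acids from proteins, rose by 0.56. AGA, which cuts glycoproteins at their linkage to asparagine, rose by 0.40. Among 20 other membrane proteins and transporters, 8 fell and 2 rose, a share called near that of all genes tested. SIDT2 fell by 1.05 and SLC17A5, the sialic acid exporter, by 0.90, whereas NPC1, the partner of NPC2 in cholesterol export, rose by 0.28 and LAPTM4B by 0.38. NPC2 and NPC1 moved in opposite directions, although the rise of NPC1 was close to the threshold (adjusted p = 0.0448).

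Of the sorting genes, M6PR, a receptor for hydrolases that carry mannose 6-phosphate, and GGA2, its adaptor, each rose by 0.43, and AP1S1, a subunit of the clathrin adaptor AP-1, fell by 0.47. In the other autophagy machinery, 11 of 31 genes fell and 4 rose, 48.4% called, near the 51.0% of all genes tested. ATG3, the enzyme that transfers ATG8 proteins to lipid, rose by 0.86 and ATG4C, a protease that trims them, by 0.80. ATG16L2 fell by 0.81 and EPG5, a tether for fusion with lysosomes, by 0.67. MAP1LC3A, an ATG8 gene outside the members, fell by 1.35 (adjusted p = 1.72e-05), from a mean of 12.4 CPM in 1CT to 4.96 CPM in 1CT-A. Among 25 genes of mTORC1 and its regulators at the lysosome, 5 fell and 4 rose, a smaller share called than the 51.0% of all genes tested. TSC2 and TSC1, which hold the activator RHEB in check, fell by 0.64 and 0.52, and RHEB and LAMTOR3 rose by 0.48 and 0.57. The other called genes of this list were AKT1S1 and LAMTOR1, higher by 0.41 and 0.20, and RRAGA, NPRL3 and DEPTOR. These last fell by 0.24, 0.30 and 1.18, DEPTOR from a mean of only 1.83 CPM in 1CT. The activity of mTORC1 was not measured. Of 11 cystatins, inhibitors of cysteine cathepsins, 3 were expressed enough to be tested. All 3 fell, CST3 by 0.69 and CSTB by 0.25 among them, where 26.0% of all genes tested did. The third, CST6, fell by 1.75 at few counts, 13, 10 and 12 in 1CT against 8, 5 and 2 in 1CT-A.

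**Figure D4:**
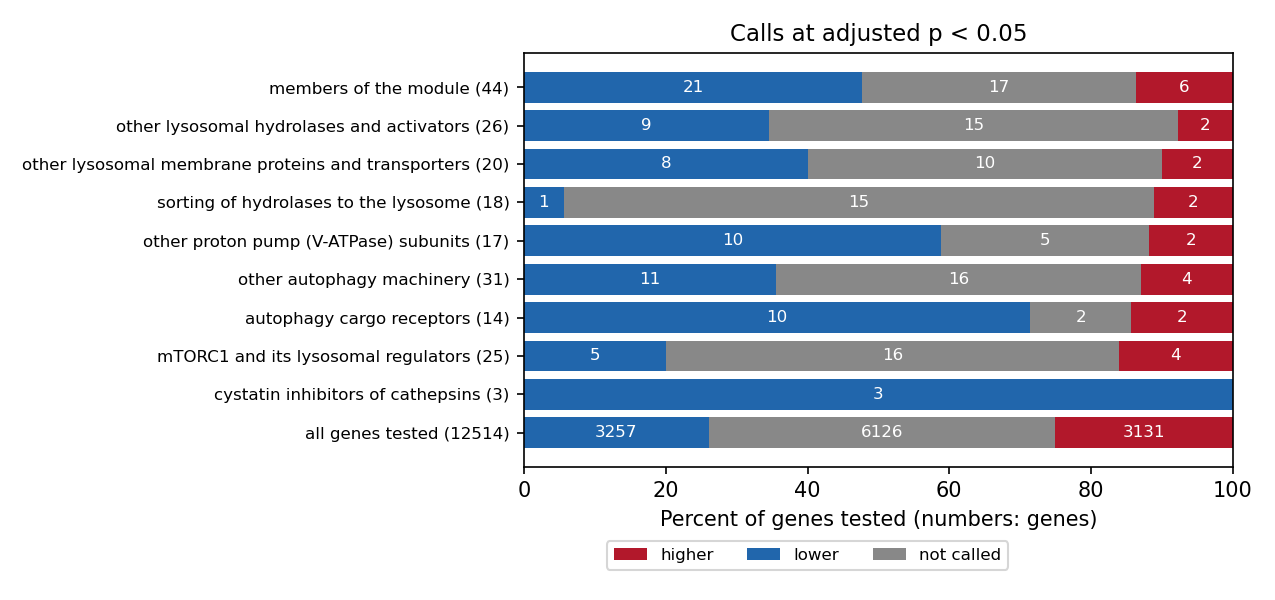
Percent of tested genes called lower, not called or higher in 1CT-A (x axis) for the lysosome and autophagy genes, for 8 lists of related genes and for all genes tested, with the number tested in parentheses and the number of genes on each bar. Cargo receptors (10 of 14 lower) and other V-ATPase subunits (10 of 17 lower) have more genes lower than the 26.0% of all genes, and sorting genes have 1 of 18.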

How the data were processed

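Total RNA of 3 1CT and 3 1CT-A libraries was sequenced from 3′ ends (QuantSeq). The authors deposited 1 table per library with raw counts per gene symbol, whole numbers without normalization or pooling. The submitters' processing notes name hg19, Bowtie2 and edgeR with no role. The counting tool, annotation and strand setting are not given in the sources used here. Repeated entries of a symbol were summed, and no row lacked a gene name. Counts were fitted with edgeR 4.0.16 in R 4.3.3: TMM (factors 0.976 to 1.02), filterByExpr (minimum count 10), and the quasi-likelihood test with no block, with p-values adjusted by Benjamini-Hochberg across 12514 genes. Members were called at an adjusted p under 0.05. Log2 fold changes are 1CT-A minus 1CT with edgeR's prior count, SE is the absolute log2 fold change divided by the square root of F, and intervals are 95%. CPM use the library total without TMM. Exact permutation tests were two-sided. Per-gene two-tailed tests used log2(CPM + 1), with CPM scaled by the TMM factors.

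The members and all gene lists were chosen with earlier results of these data known. Full values were given for members called with an absolute log2 fold change of at least 1, for TFEB, TFE3 and MITF, and for the largest change in each other role group. Others were named by counts, with short values. From related lists, up to 2 rises and 2 falls were named among called genes averaging 10 CPM or more. MALAT1, NEAT1, GUSBP1, MAP1LC3A, MAP1LC3B2, GABARAPL3, CST6, AKT1S1, LAMTOR1, RRAGA, NPRL3, DEPTOR and the ratios fall outside this rule. So do the values in each library given for CTSC, CTSZ, GUSB, GABARAPL2 and ATG5. Gene positions and overlaps of the last 300 bases of the last exon come from GENCODE 44 on GRCh38, not from the build of the deposited counts. Promoters come from RefSeq (GRCh38.p14). The fit was tested on simulated counts with few changed genes, balanced up and down, and the same dispersion for every gene. That setting is simpler than these data. Alternatives were other normalizations and filters, DESeq2 1.42.0, limma-voom (limma 3.58.1), a replicate block, a threshold of 0.01, per-gene tests at the study's thresholds, each library left out, and, added after seeing the depths, libraries thinned to the smallest total. Replicates of a line differed by more than counting noise (chi-square per degree of freedom 3.11 to 9.00, the 2 highest values being those of 1CT replicate 3).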

Additional observations from a re-analysis of the deposited data

How the results depend on the processing

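Over the alternatives at an adjusted p under 0.05, 4 to 6 members were higher and 19 to 25 lower. With 0.01 as the threshold, 3 members were higher and 18 lower. At the study's thresholds, 2 members were lower, but 1 with library size only. The per-gene two-tailed test on log2(CPM + 1), with equal or with unequal variances, also gave 1 lower. Without single libraries this count was 1 to 4: it was 4 without 1CT replicate 2, and 1 without 1CT replicate 3 or without 1CT-A replicate 3. Over 44 members and 15 alternatives, the direction and the call were kept in 610 of the cases, the call was lost in 27 and gained in 8, and the sign changed in 15, each time for a member that was not called. With library size only these were CTSA (0.014) and GLA (0.022), without a filter CTSA (0.022) and GLA (0.030), and with upper-quartile factors NEU1 (-0.019), ATP6V1H (-0.013) and GABARAPL2 (-0.017). The others came from leaving out 1 library in turn, which gave -0.010 to 0.23 for LAMP2, -0.086 to 0.016 for CTSA, -0.17 to 0.0067 for CTSD, -0.27 to 0.029 for CTSL, -0.080 to 0.081 for GLA and -0.061 to 0.12 for ATP6V1H. GAA, BECN1 and ATG9A each lost their call in 8 alternatives, SCARB2 without a filter, LIPA without 1CT-A replicate 3 and ATG5 without 1CT-A replicate 2. CTSH, not tested with the filter, reached an adjusted p of 0.00448 without it. The cause of these changes was not tested. With the replicate number as a block, 6 members were higher and 19 lower, BECN1 and ATG9A losing their call. The labels give both lines the numbers 1 to 3, but same-numbered libraries did not deviate together (correlations -0.16, 0.22 and -0.14 over 8224 genes), so the numbers are not taken as pairs. The 1CT-A libraries were deeper by a factor of 1.43. After thinning to the smallest total, 5 members were higher and 20 lower. TFEB, CTSH and CTSS had 12 counts or fewer in each library.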
